A study of Mus musculus with 12 samples.

Results

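The genes described here make sterols and fatty acids. They are 32 genes picked by name: the enzymes that turn acetyl-CoA into cholesterol, the enzymes that build and lengthen fatty acids, and the proteins that switch these enzymes on or off. The deposited table held 31 of them among its 12885 gene symbols; Scd1, a stearoyl-CoA desaturase, was not analysed here. By role they are 7 mevalonate genes, 10 genes of squalene and the sterol rings, 7 fatty acid genes, 6 genes of regulation and transport, and the mitochondrial thiolase gene Acat1.

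RNA came from splenic CD8+ T cells of 6-week-old mice of the C57Bl/6 strain, labelled female. Naive cells (CD62L high, CD44 low or negative) were sorted from Ikaros-Zn4-/- mice (Zn4 below), in which both copies of the gene carry the mutation, and from wild-type mice (WT). They were taken at once (0 h), or at 12 h or 24 h of stimulation by plate-bound anti-CD3 and anti-CD28. The 6 groups are Zn4 and WT cells at each of these 3 times, with 2 libraries in each group, 12 in all. The labels name no promoter or cell type that would limit the mutation to some cells of the mouse, and both genotypes received the same stimulation.

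Cholesterol synthesis starts when acetyl-CoA units are joined and reduced to mevalonate, which is built up to farnesyl diphosphate, joined head to head into squalene, closed into the ring of lanosterol and trimmed to cholesterol. Fatty acid synthesis starts from the same acetyl-CoA, released from citrate by Acly, carboxylated by Acaca and assembled by Fasn. Both are switched on by the SREBP transcription factors, which Scap carries from the endoplasmic reticulum to the Golgi for cleavage when sterol is scarce, and which the Insig proteins hold back when sterol is plentiful. A T cell that leaves rest to grow and divide is known to need both pathways for new membrane. Ikaros, encoded by Ikzf1, is a zinc finger protein that binds DNA in lymphocytes, and Zn4 names the fourth of its fingers.

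Library totals recovered from the deposited values ran from 24263907 to 33389808 reads, and libraries of a group correlated at r = 0.98 to 0.995 across genes. Ikzf1 stood at 90.9 to 139 RPKM in the 12 libraries (RPKM is reads per kilobase of gene, scaled to library depth), and a level per gene cannot show whether a finger is missing. The 8 markers of CD8 T cells summed to 1769 to 3119.9 RPKM. Cd4 reached at most 2.09 RPKM. Cd79b, which was 1 of 6 B cell markers in the table, reached at most 6.62 RPKM. The 2 of 6 myeloid markers in the table (Itgam and Cd68) together reached at most 6.62 RPKM. At 24 h Cd79b had 1.56 and 1.73 RPKM in Zn4 cells and 6.62 and 6.53 RPKM in WT cells. The CD8 marker sums at 24 h were 1769 and 2076 RPKM in Zn4 cells and 2733 and 2629 RPKM in WT cells. Both were also lower in Zn4 cells at 12 h, without overlap, and overlapped between genotypes at 0 h. At 12 h the libraries differed in sex-linked RNA against their labels: 4 Y-linked genes summed to 43.4 and 21.0 RPKM in Zn4 replicates 1 and 2 and to 38.9 RPKM in WT replicate 1, and to at most 0.0209 RPKM in every other library. Xist, the RNA of the inactive X chromosome, stood at 0.0258 and 24.3 RPKM in those Zn4 libraries and at 0.0023 RPKM in that WT library. Every comparison with a 12 h group holds this imbalance. In RNA of whole cell populations, fewer cells of a kind and less RNA per cell cannot be told apart. Whether the 2 libraries of a group came from different mice is not given in the labels, so p-values measure only the spread between these samples, which may be technical.

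Stimulation raised most of these genes within 12 h in both genotypes. In Zn4 cells 19 of 31 were higher at 12 h than at 0 h and 7 were lower; in WT cells 22 were higher and 2 lower (limma on log2(RPKM + 1), adjusted p under 0.05). The count of 7 lower moved to 3 without Zn4 12 h replicate 1 and to 3 with the Y-linked level as a covariate, where Acat2, Mvd, Dhcr7 and Srebf1 were the genes lost; the WT count of 2 lower moved to 1, without Insig2, when WT 12 h replicate 1 was left out or with that covariate. Stimulation moved much of the transcriptome: among all 12726 genes tested, 43.5% were called higher and 29.6% lower in Zn4 cells, and 43.1% higher and 27.0% lower in WT cells. The members' median log2 change was 0.78 in Zn4 cells and 0.79 in WT cells, against 0.19 and 0.20 over all genes. The 19 genes called higher in Zn4 cells were all among the 22 called higher in WT cells. Of the genes called lower with values as deposited, only Elovl5 was called in both genotypes, so 14.3% of the Zn4 calls and 50% of the WT calls were shared. The comparisons within a genotype and between genotypes share libraries. When the libraries were rescaled by median ratio, the median of all genes moved to -0.02 in both genotypes, and the calls became 17 higher and 9 lower in Zn4 cells and 18 higher and 5 lower in WT cells; quantile normalization gave 17 and 9 in Zn4 cells and 17 and 4 in WT cells. Sc5d and Acat1 in Zn4 cells, and Sc5d, Ebp, Dhcr7 and Stard4 in WT cells, lost their call of higher under both scalings, with Stard4 in WT cells at 0.25 ± 0.09 as deposited and -0.03 by median ratio. By median ratio, Srebf1 (-0.65), Scd2 (-0.58) and Elovl6 (-0.50) were also called lower in WT cells. Insig2 (-0.39) and Stard4 (-0.43) were then also called lower in Zn4 cells. All 5 WT calls of lower were thus shared with Zn4 cells under that scaling. The shares of all genes above hold for values as deposited, and those under either scaling are not reported here.

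**Figure D1:**
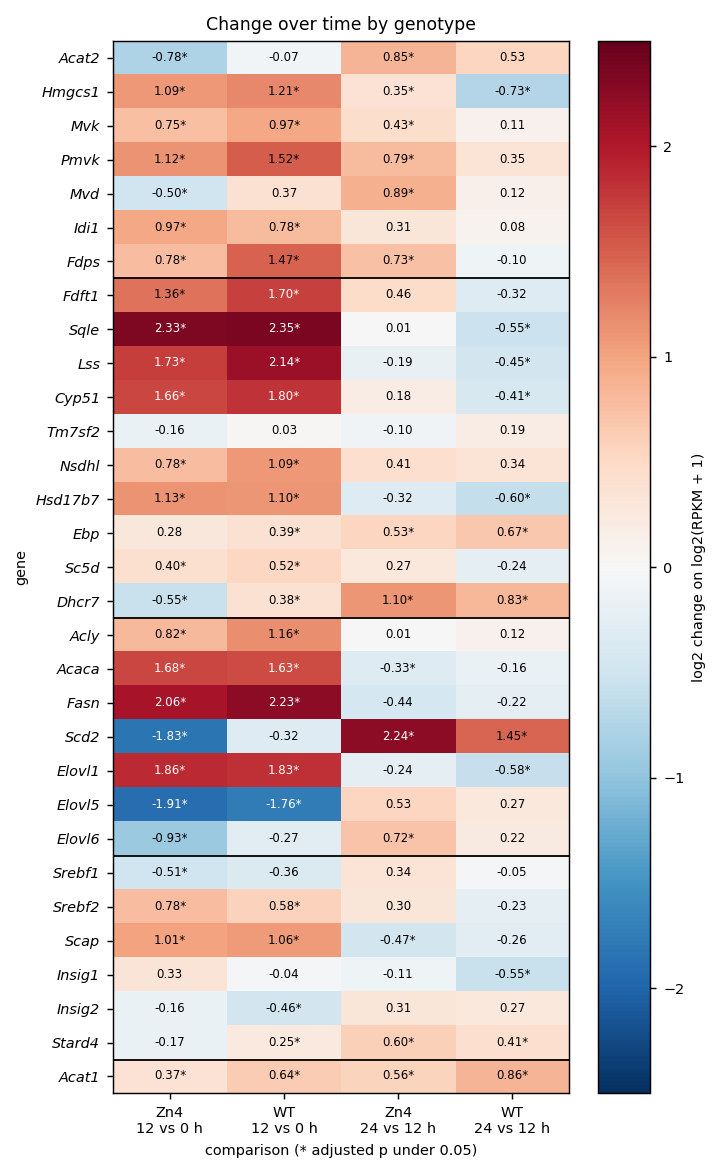
Log2 change on the log2(RPKM + 1) scale of the 31 genes (rows, by role from mevalonate genes at the top to Acat1 at the bottom) between 12 h and 0 h and between 24 h and 12 h, for Zn4 and WT cells (columns); an asterisk marks adjusted p under 0.05. The first 12 h raised squalene and lanosterol genes such as Sqle (2.33 in Zn4, 2.35 in WT), while the second 12 h differed in sign between the genotypes for genes such as Hmgcs1 (0.35 in Zn4, -0.73 in WT).

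The promoters of 4 genes that the genotype comparisons turn on are shown because SREBP proteins act at short sites there, with NF-Y at CCAAT boxes nearby. RefSeq windows from 250 bases before to 50 bases after the transcription start (build GRCm38.p6) were given for 25 of the 32 genes, 34 windows in all. None was given for Fdps, Fdft1, Sqle, Scd1, Scd2, Stard4 or Acat1, so their promoters were not searched. Of these 25, Hmgcs1 was the only gene whose window held the exact sterol regulatory element letters TCACNCCAC on either strand. Its match, TCACCCCAC, starts 137 bases before the transcription start. Sites that depart from these letters were not counted. Srebf2, Insig1 and Dhcr7 were added after their values were seen; for Dhcr7 the window shown is the leftmost of its 3. Capitals mark the sterol regulatory element letters, CCAAT on either strand (ATTGG when on the other strand) and the E-box CACGTG.
Hmgcs1 (chr13:119690101-119690400, plus strand): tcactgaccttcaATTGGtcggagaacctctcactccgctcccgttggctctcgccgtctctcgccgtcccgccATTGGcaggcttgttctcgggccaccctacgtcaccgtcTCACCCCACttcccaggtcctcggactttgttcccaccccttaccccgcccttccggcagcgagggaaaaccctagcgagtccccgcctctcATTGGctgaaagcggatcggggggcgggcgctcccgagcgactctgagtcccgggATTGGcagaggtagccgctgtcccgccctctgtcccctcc
Srebf2 (chr15:82147019-82147318, plus strand): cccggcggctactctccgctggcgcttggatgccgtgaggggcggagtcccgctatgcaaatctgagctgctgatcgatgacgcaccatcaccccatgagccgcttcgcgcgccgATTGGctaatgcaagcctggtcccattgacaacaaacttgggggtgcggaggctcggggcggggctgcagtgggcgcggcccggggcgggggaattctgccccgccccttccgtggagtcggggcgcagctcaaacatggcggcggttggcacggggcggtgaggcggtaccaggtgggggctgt
Insig1 (chr5:28071162-28071461, plus strand): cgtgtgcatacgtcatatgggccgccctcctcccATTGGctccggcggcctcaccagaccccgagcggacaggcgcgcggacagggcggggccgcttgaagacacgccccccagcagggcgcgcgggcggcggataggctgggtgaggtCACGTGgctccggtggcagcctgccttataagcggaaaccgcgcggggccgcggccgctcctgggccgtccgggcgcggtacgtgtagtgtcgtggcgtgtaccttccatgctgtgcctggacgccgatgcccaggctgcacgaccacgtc
Dhcr7 (chr7:143822917-143823216, plus strand): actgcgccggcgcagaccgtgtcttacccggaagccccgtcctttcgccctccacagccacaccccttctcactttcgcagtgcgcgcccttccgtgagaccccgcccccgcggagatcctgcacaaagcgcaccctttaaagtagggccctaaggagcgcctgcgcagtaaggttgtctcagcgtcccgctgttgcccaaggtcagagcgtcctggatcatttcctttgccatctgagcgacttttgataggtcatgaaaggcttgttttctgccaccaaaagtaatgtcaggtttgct
The Hmgcs1 window holds 4 CCAAT boxes around its sterol element, the Srebf2 window 1, the Insig1 window 1 with 1 E-box, and this Dhcr7 window none of the 3 motifs. Of the other Dhcr7 windows, 1 holds an E-box and 1 holds 2 CCAAT boxes.

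Across the 34 windows the sterol element was present in 2.94%, against 1.24% of all 32851 RefSeq windows. CCAAT was present in 64.7% of the members' windows, against 37.4% of all windows and 37.9% of windows of genes in the expression table. The GC box GGGCGG, a site of Sp1, was in 73.5% of them, against 35.7% of all windows and 63.6% of windows of genes in the table. CACGTG was in 20.6%, against 7.15% of all windows and 10.5% of those of genes in the table. TGGGAA, the core that Ikaros binds, was in 29.4%, against 25.6% of all windows and 22.5% of those of genes in the table, and the 8 genes that held it were Acaca, Hmgcs1, Insig2, Mvk, Nsdhl, Sc5d, Scap and Srebf1. These are matches of letters, counted on both strands, and matches of different motifs may overlap.

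Most of the mevalonate genes rose early in both genotypes. Of the 7, Zn4 cells had 5 higher and 2 lower at 12 h than at 0 h, and WT cells had 5 higher and none lower. The shares of all genes were 43.5% higher and 29.6% lower in Zn4 cells, and 43.1% and 27.0% in WT cells. Hmgcs1 (ENSMUSG00000093930.2, chr13:119690379-119708260, plus strand, GRCm38), the cytosolic HMG-CoA synthase that commits acetyl units to the pathway, had 16.7 and 19.0 RPKM at 0 h, 37.8 and 40.3 RPKM at 12 h, and 49.8 and 50.5 RPKM at 24 h in Zn4 cells. In WT cells Hmgcs1 had 25.9 and 24.1 RPKM at 0 h, 52.1 and 66.7 RPKM at 12 h, and 34.8 and 35.3 RPKM at 24 h. Zn4 cells thus had their highest Hmgcs1 at 24 h and WT cells theirs at 12 h, and the genotypes did not overlap at any time. The change at 12 h was 1.09 ± 0.11 (log2, SE) in Zn4 cells and 1.21 ± 0.11 in WT cells (adjusted p = 1.61e-05 and 9.42e-06 by limma).

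Pmvk, the kinase that adds the second phosphate to mevalonate, had 3.96 and 4.02 RPKM at 0 h, 7.89 and 12.1 RPKM at 12 h, and 16.3 and 19.1 RPKM at 24 h in Zn4 cells. Its WT values were 5.47 and 4.56 RPKM at 0 h, 14.5 and 18.1 RPKM at 12 h, and 20.7 and 21.0 RPKM at 24 h. Pmvk was higher in every library of each later time in both genotypes, and each WT library lay above both Zn4 libraries of its time. Mvd, the decarboxylase that makes the 5-carbon isoprene unit, behaved otherwise. In Zn4 cells it had 10.8 and 11.2 RPKM at 0 h, 6.76 and 8.29 RPKM at 12 h, and 14.6 and 15.0 RPKM at 24 h. Its WT levels were 9.42 and 9.75 RPKM at 0 h, 10.6 and 15.2 RPKM at 12 h, and 15.0 and 12.9 RPKM at 24 h. Mvd was lowest at 12 h in Zn4 cells, with no overlap with either other time. Its change from 0 h was -0.50 ± 0.15 in Zn4 cells (log2, adjusted p = 0.015 by limma) and 0.37 ± 0.15 in WT cells (adjusted p = 0.0534), and the difference between these changes was not called (-0.87 ± 0.22, adjusted p = 0.0541). The Mvd change in Zn4 cells was -0.037 with the Y-linked level as a covariate (adjusted p = 0.855), and it was not called without Zn4 12 h replicate 1 (-0.37) or Zn4 0 h replicate 2 (-0.48). Acat2, the cytosolic thiolase that joins the starting acetyl units, was lower at 12 h by the same test in Zn4 cells, with means of 3.19 ± 0.348 RPKM at 12 h and 6.25 ± 1.24 RPKM at 0 h (SD, n = 2 each), and was not called in WT cells. The Acat2 call was also lost with that covariate or without either of those libraries. Mvk, the mevalonate kinase, Idi1, the isomerase of the isoprene unit, and Fdps, the farnesyl diphosphate synthase, rose in both genotypes by 0.75 to 1.47. Idi1 lies near the pseudocount, with means of 0.305 to 2.16 RPKM and 25 to 203 reads a library, so its log2 change understates its ratio.

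Most genes of squalene and the lanosterol ring rose at 12 h in both genotypes. Of the 10 genes of this part of the pathway, 7 were higher and 1 lower at 12 h in Zn4 cells, and 9 were higher in WT cells. Among all genes, 43.5% were higher and 29.6% lower in Zn4 cells, and 43.1% were higher in WT cells. Sqle, the epoxidase that makes the substrate of ring closure, had 2.39 and 2.23 RPKM at 0 h, 15.2 and 15.9 RPKM at 12 h, and 15.5 and 15.9 RPKM at 24 h in Zn4 cells. The WT levels were 3.45 and 2.68 RPKM at 0 h, 18.2 and 21.1 RPKM at 12 h, and 13.4 and 12.8 RPKM at 24 h. Sqle stood at 15.2 to 15.9 RPKM in all stimulated Zn4 libraries, while the WT libraries of 24 h lay below those of 12 h. Its change at 12 h was 2.33 ± 0.11 in Zn4 cells and 2.35 ± 0.11 in WT cells (adjusted p = 9.19e-08 and 1.12e-07 by limma), the largest of the 31 genes in each genotype on this scale. In WT cells Lss stood above it with a pseudocount of 0.1 (2.76 for Lss and 2.65 for Sqle) and with limma-voom on recovered reads (2.85 and 2.69).

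Cyp51, the demethylase that begins the trimming of lanosterol, had 11.1 and 10.2 RPKM at 0 h, 35.1 and 36.7 RPKM at 12 h, and 37.9 and 43.8 RPKM at 24 h in Zn4 cells. Its WT levels were 13.2 and 14.8 RPKM at 0 h, 48.9 and 54.1 RPKM at 12 h, and 37.8 and 39.2 RPKM at 24 h. The genotypes did not overlap at 0 h or 12 h and did at 24 h. Lss, the cyclase that closes the ring, rose at 12 h by 1.73 ± 0.11 in Zn4 cells and 2.14 ± 0.11 in WT cells. Fdft1, the squalene synthase, rose by 1.36 ± 0.16 in Zn4 cells and 1.70 ± 0.16 in WT cells. Nsdhl and Hsd17b7, which act on the C4 methyl groups of lanosterol, and Sc5d, the desaturase of the last steps, rose in both genotypes as well. Tm7sf2, a sterol reductase, lay between 0.865 and 1.85 RPKM in all libraries, near the pseudocount, and was called in no comparison of the main fit. At 24 h it had 0.886 and 0.942 RPKM in Zn4 cells and 1.75 and 1.85 RPKM in WT cells. Limma-voom on recovered reads called that difference (-0.98, adjusted p = 0.048). Ebp, the isomerase that moves the ring double bond, had means of 10.8, 13.3 and 19.8 RPKM at 0 h, 12 h and 24 h in Zn4 cells and 9.70, 12.9 and 21.2 RPKM in WT cells. Fdft1 shares 774 exon bases with Ctsb on the opposite strand, Cyp51 166 with Akap9 on the opposite strand, and Tm7sf2 532 with Vps51 on the same strand. The sources used here do not say whether counting used strand, so reads in the shared stretches cannot be told apart.

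Dhcr7 (ENSMUSG00000058454.15, chr7:143823145-143848410, plus strand), the reductase that makes cholesterol from 7-dehydrocholesterol, followed another course. In Zn4 cells it had 4.0 and 3.59 RPKM at 0 h, 1.91 and 2.70 RPKM at 12 h, and 5.69 and 6.42 RPKM at 24 h. In WT cells it had 5.10 and 4.98 RPKM at 0 h, 6.04 and 7.80 RPKM at 12 h, and 13.1 and 13.0 RPKM at 24 h. Every WT library lay above both Zn4 libraries of its time, and the 12 h libraries were the lowest of the 3 times in Zn4 cells but not in WT cells. The change at 12 h was -0.55 ± 0.14 in Zn4 cells (adjusted p = 0.00639) and 0.38 ± 0.14 in WT cells (adjusted p = 0.0366, limma). With the Y-linked covariate the Dhcr7 change in Zn4 cells was -0.20 (adjusted p = 0.375), and without Zn4 12 h replicate 1 it was -0.37 (adjusted p = 0.0605), while the WT change was not called in 9 of 23 alternatives, among them the fits without either WT 0 h library, either WT 24 h library or WT 12 h replicate 2. The difference between these changes was -0.93 ± 0.20 (adjusted p = 0.0324). This difference was not called when WT 12 h replicate 2 (-0.77, adjusted p = 0.124) or Zn4 12 h replicate 1 (-0.76, adjusted p = 0.118) was left out, among other settings.

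Among the fatty acid genes Acly, Acaca, Fasn and Elovl1 rose in both genotypes, and Elovl5 fell in both. Of the 7 measured, Zn4 cells had 4 higher and 3 lower at 12 h, and WT cells 4 higher and 1 lower. Over all genes, 43.5% were higher and 29.6% lower in Zn4 cells, and 43.1% higher and 27.0% lower in WT cells. Fasn, the fatty acid synthase, had 26.0 and 33.0 RPKM at 0 h, 124 and 127 RPKM at 12 h, and 90.4 and 94.1 RPKM at 24 h in Zn4 cells. WT cells had 22.9 and 32.8 RPKM at 0 h, 141 and 124 RPKM at 12 h, and 113 and 114 RPKM at 24 h. Fasn had the highest mean RPKM of the 31 genes in each stimulated group. The genotypes overlapped at 0 h and 12 h but not at 24 h, where the difference was not called (-0.30 ± 0.16, Zn4 minus WT, adjusted p = 0.234). Acaca, the acetyl-CoA carboxylase, rose at 12 h by 1.68 ± 0.11 in Zn4 cells and 1.63 ± 0.11 in WT cells. Acly, the citrate lyase, rose by 0.82 ± 0.14 in Zn4 cells and 1.16 ± 0.14 in WT cells. Elovl1, the elongase of very long saturated chains, rose by 1.86 ± 0.11 in Zn4 cells and 1.83 ± 0.11 in WT cells, and shares 53 exon bases with Cdc20 on the opposite strand.

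Elovl5, the elongase of polyunsaturated chains, fell in both genotypes. It had 47.3 and 80.8 RPKM at 0 h, 15.3 and 16.3 RPKM at 12 h, and 22.6 and 24.0 RPKM at 24 h in Zn4 cells. Its WT levels were 65.8 and 93.1 RPKM at 0 h, 21.6 and 23.4 RPKM at 12 h, and 26.9 and 27.6 RPKM at 24 h. Resting libraries were spread widely but lay above every stimulated library, with changes at 12 h of -1.91 ± 0.22 in Zn4 cells and -1.76 ± 0.22 in WT cells (adjusted p = 3.39e-05 and 6.83e-05 by limma).

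Scd2 (ENSMUSG00000025203.6, chr19:44293674-44306864, plus strand), a stearoyl-CoA desaturase that places a double bond in saturated chains, had the largest difference between genotypes in the change from 0 h to 12 h. In Zn4 cells it had 8.32 and 12.3 RPKM at 0 h, 1.69 and 2.64 RPKM at 12 h, and 14.2 and 13.3 RPKM at 24 h. In WT cells it had 4.85 and 5.75 RPKM at 0 h, 3.28 and 4.91 RPKM at 12 h, and 12.2 and 13.2 RPKM at 24 h. Zn4 libraries were above WT libraries at 0 h, below them at 12 h and narrowly above them at 24 h. The change at 12 h was -1.83 ± 0.21 in Zn4 cells (adjusted p = 3.23e-05), against -0.32 ± 0.21 in WT cells (adjusted p = 0.203), a difference of -1.51 ± 0.30 (adjusted p = 0.0223 by limma). The difference was not called in 5 of 23 alternatives, among them those leaving out WT 12 h replicate 2 (-1.28, adjusted p = 0.0887) or Zn4 12 h replicate 1 (-1.29, adjusted p = 0.0937). Elovl6, the elongase of palmitate, fell at 12 h in Zn4 cells (-0.93 ± 0.16, adjusted p = 0.000513) and had a change of -0.27 ± 0.16 in WT cells (adjusted p = 0.163). The difference between those changes was not called (-0.66 ± 0.23, adjusted p = 0.146).

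Of the 6 genes of regulation and transport, Zn4 cells had 2 higher and 1 lower at 12 h than at 0 h, and WT cells 3 higher and 1 lower. These counts do not stand out from all genes, with 43.5% higher and 29.6% lower in Zn4 cells. In WT cells 43.1% of all genes were higher and 27.0% lower. Srebf2 (ENSMUSG00000022463.8, chr15:82147181-82205379, plus strand), which encodes the SREBP factor of sterol genes, had 44.8 and 38.0 RPKM at 0 h, 67.5 and 75.5 RPKM at 12 h, and 91.5 and 84.8 RPKM at 24 h in Zn4 cells. In WT cells it had 55.3 and 59.3 RPKM at 0 h, 80.8 and 91.5 RPKM at 12 h, and 73.1 and 73.3 RPKM at 24 h. Its Zn4 level was below WT at 0 h and 12 h and above WT at 24 h, without overlap at any of the 3 times. Srebf2 rose at 12 h by 0.78 ± 0.10 in Zn4 cells (adjusted p = 8.5e-05) and by 0.58 ± 0.10 in WT cells (adjusted p = 0.000695), a WT call lost with quantile normalization (0.16).

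Insig1 (ENSMUSG00000045294.11, chr5:28071363-28078662, plus strand), the sterol-responsive anchor of Scap, had 13.1 and 10.4 RPKM at 0 h, 14.3 and 15.7 RPKM at 12 h, and 14.6 and 13.0 RPKM at 24 h in Zn4 cells. In WT cells it had 28.0 and 19.1 RPKM at 0 h, 21.2 and 23.8 RPKM at 12 h, and 14.2 and 15.9 RPKM at 24 h. Zn4 libraries lay between 10.4 and 15.7 RPKM throughout, while WT libraries lay above those of Zn4 at 0 h and 12 h and overlapped them at 24 h. Neither genotype had a call for Insig1 at 12 h. Scap rose at 12 h by 1.01 ± 0.09 in Zn4 cells and 1.06 ± 0.09 in WT cells. Srebf1, which encodes the SREBP factor that favours fatty acid genes, had means of 27.5, 18.9 and 24.2 RPKM at 0 h, 12 h and 24 h in Zn4 cells and 33.4, 25.7 and 24.8 RPKM in WT cells. It fell at 12 h in Zn4 cells (-0.51 ± 0.16, adjusted p = 0.0148), a call lost without Zn4 0 h replicate 1 (-0.32) or Zn4 12 h replicate 1 (-0.41), and its WT change was -0.36 ± 0.16 (adjusted p = 0.0653). Insig2, the isoform that sterol does not induce, was lower at 12 h in WT cells (-0.46 ± 0.12, adjusted p = 0.00615) and had a change of -0.16 ± 0.12 in Zn4 cells (adjusted p = 0.241). Stard4, a carrier of cholesterol between membranes, was highest at 24 h in both genotypes, at 14.9 ± 0.0656 RPKM in Zn4 cells and 14.3 ± 0.959 RPKM in WT cells (SD, n = 2 each). Srebf1 shares 109 exon bases with Rai1 on the opposite strand.

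**Figure D2:**
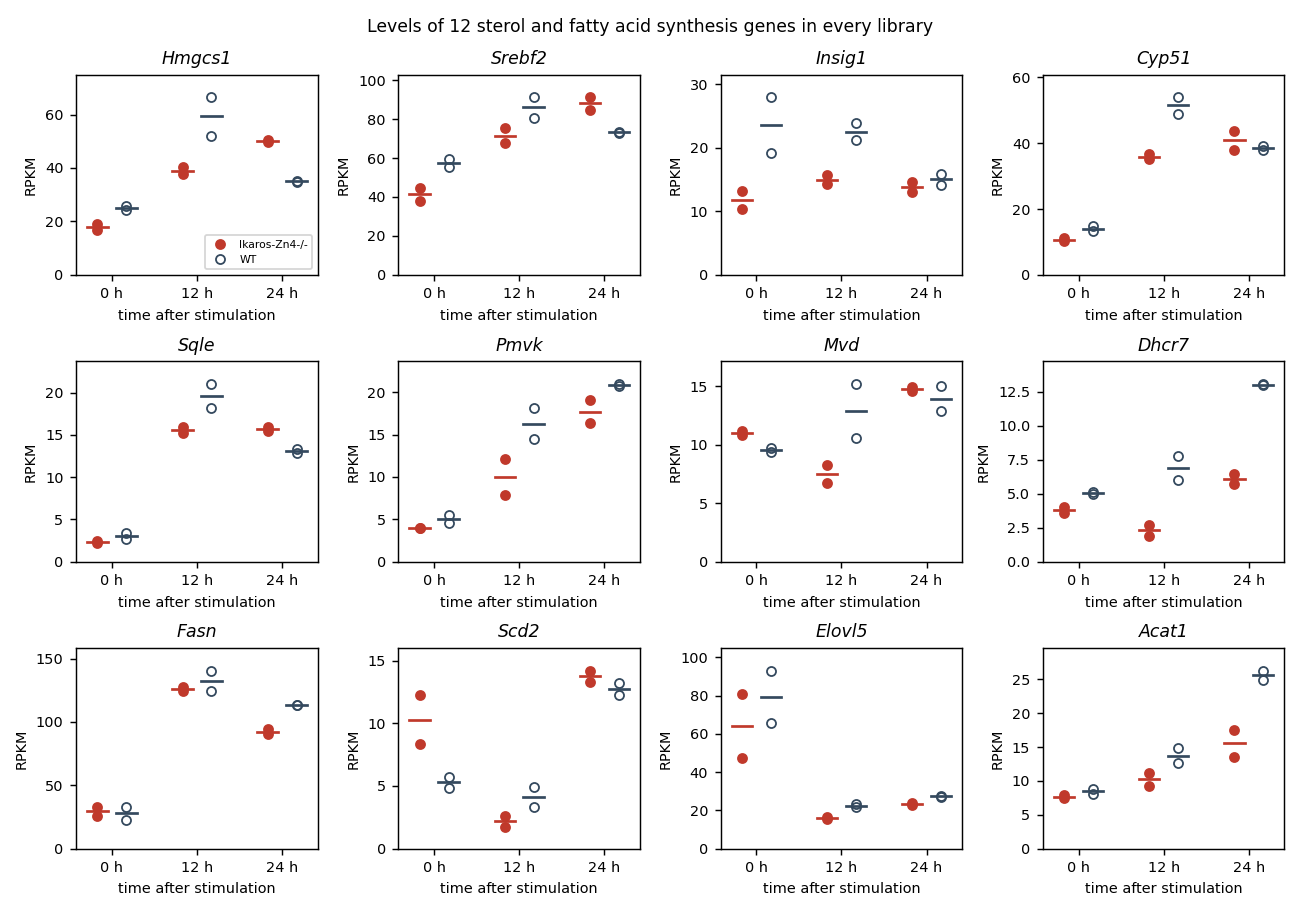
Levels in RPKM (vertical axes, from 0) of 12 of the genes, chosen after their values were seen, at 0 h, 12 h and 24 h (horizontal axes); each point is a library, filled for Zn4 and open for WT, and bars are means of 2. Dhcr7 in Zn4 cells lies below WT at each time, and Hmgcs1 in Zn4 cells lies below WT at 0 h and 12 h and above it at 24 h.

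In the second 12 h, several sterol genes rose in Zn4 cells and several fell in WT cells. In Zn4 cells 12 of the 31 genes were higher at 24 h than at 12 h and 2 lower, against 22.6% and 11.0% of all genes tested. In WT cells 5 were higher and 7 lower, against 17.0% and 6.94% of all genes. Quantile normalization gave 9 higher and 4 lower in Zn4 cells, and median-ratio scaling 11 higher and 5 lower. The shares of all genes under these scalings are not reported here. The members' median change was 0.34 in Zn4 cells and 0.08 in WT cells, beside 0.05 and 0.04 over all genes. The 5 genes called higher in WT cells, which were Scd2, Acat1, Dhcr7, Ebp and Stard4, made up 41.7% of the Zn4 calls. No gene was called lower in both genotypes.

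Of the 7 mevalonate genes, 6 were called higher in Zn4 cells (all but Idi1), against none higher and 1 lower in WT cells. Among all genes, 22.6% were higher and 11.0% lower in Zn4 cells, and 17.0% higher and 6.94% lower in WT cells. Of these 6 calls, 5 were lost without Zn4 12 h replicate 1 (all but Mvd), 4 without Zn4 24 h replicate 2, and all 6 with the Y-linked level as a covariate, where Hmgcs1 stood at 0.043 and Fdps at 0.23. Summed over the 7 genes, Zn4 cells had 45.0 and 49.7 RPKM at 0 h, 70.9 and 81.8 RPKM at 12 h, and 113 and 119 RPKM at 24 h. The WT sums were 53.1 and 54.7 RPKM at 0 h, 102 and 133 RPKM at 12 h, and 102 and 100.1 RPKM at 24 h. Hmgcs1 was the largest term of each sum, and the Zn4 sum was below WT at 0 h and 12 h and above it at 24 h, with no overlap. The largest Zn4 changes were those of Scd2 (2.24 ± 0.21, adjusted p = 6.87e-05), Dhcr7 (1.10 ± 0.14, adjusted p = 0.000424), Mvd (0.89 ± 0.15, adjusted p = 0.00207) and Acat2 (0.85 ± 0.23, adjusted p = 0.021). Scap and Acaca were the genes called lower in Zn4 cells, at -0.47 ± 0.09 and -0.33 ± 0.11. In WT cells the 7 genes called lower were Hmgcs1, Hsd17b7, Elovl1, Insig1, Sqle, Lss and Cyp51, with changes of -0.73 to -0.41.

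The test of the difference between these changes called Hmgcs1 alone, which rose by 0.35 ± 0.11 in Zn4 cells (adjusted p = 0.0395) and changed by -0.73 ± 0.11 in WT cells (adjusted p = 0.00178). The difference was 1.09 ± 0.16 (adjusted p = 0.0311 by limma), in a test that called 0.652% of all genes higher and 0.134% lower. It was not called in 9 of 23 alternatives, among them a pseudocount of 0.1 (1.11, adjusted p = 0.0642) and the fits without WT 12 h replicate 2, either WT 24 h library, either Zn4 12 h library or Zn4 24 h replicate 1. No other gene was called; Cyp51 stood at 0.59 ± 0.14 (adjusted p = 0.105), Sqle at 0.56 ± 0.16 (adjusted p = 0.177) and Srebf2 at 0.53 ± 0.15 (adjusted p = 0.165). The median over the 31 genes was 0.32, and over all genes 0.002. The count of 14 called in Zn4 cells moved to 5 without Zn4 12 h replicate 1, to 8 without Zn4 24 h replicate 2 and to 2 with the Y-linked level as a covariate, and the WT count of 12 to 5 without WT 24 h replicate 2. The WT count of 7 lower moved to 3 without WT 12 h replicate 2, to 3 without WT 24 h replicate 1 and to 2 without WT 24 h replicate 2.

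**Figure D3:**
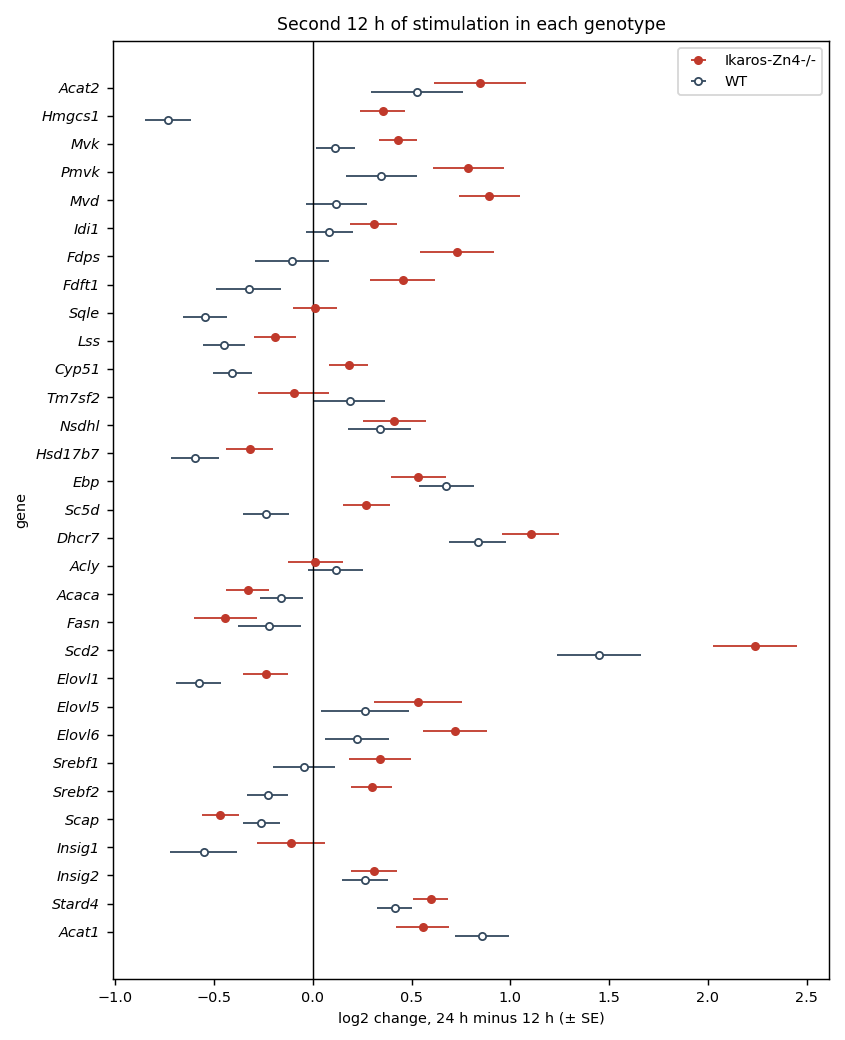
Log2 change between 24 h and 12 h on the log2(RPKM + 1) scale (horizontal axis) for each of the 31 genes (vertical axis), in Zn4 cells (filled, above) and WT cells (open, below); bars are SE. For Hmgcs1 the points lie on opposite sides of 0, at 0.35 in Zn4 and -0.73 in WT cells.

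After 24 h the levels stood above rest for most of the genes. Against 0 h, 23 were higher and 1 lower in Zn4 cells, and 23 were higher and 3 lower in WT cells, where all genes gave 48.7% higher and 26.0% lower in Zn4 cells and 48.3% higher and 25.6% lower in WT cells. The median of all genes was 0.31 in each genotype, and median-ratio scaling, which brings it to 0 and -0.002, gave 19 higher and 4 lower in each; quantile normalization gave 19 and 3 in Zn4 cells and 19 and 4 in WT cells. Srebf2 in WT cells, at 0.35 ± 0.10 (adjusted p = 0.0118), turned to -0.05 by median ratio and -0.07 by quantile normalization, and was not called when either WT 24 h library was left out. The shares of all genes called under either scaling are not reported here. Sqle (2.33 ± 0.11), Pmvk (1.90 ± 0.18), Cyp51 (1.84 ± 0.10) and Fdft1 (1.81 ± 0.16) had the largest changes in Zn4 cells. In WT cells these were Fasn (2.01 ± 0.16), Pmvk (1.87 ± 0.18), Sqle (1.80 ± 0.11) and Lss (1.69 ± 0.11). Elovl5 was lower in both genotypes, at -1.37 ± 0.22 in Zn4 cells and -1.49 ± 0.22 in WT cells, and Insig1 (-0.59 ± 0.17) and Srebf1 (-0.40 ± 0.16) were lower in WT cells. Without WT 0 h replicate 1 neither was called, at -0.33 for Insig1 (adjusted p = 0.0797) and -0.22 for Srebf1 (adjusted p = 0.262), and neither was called without WT 24 h replicate 1, so the WT count of 3 lower moved to 1. By group mean, 6 genes had their highest level in Zn4 cells at 24 h, 10 in WT cells at 12 h and 9 in WT cells at 24 h.

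At rest, 3 genes were called lower in Zn4 cells, which were Insig1, Hmgcs1 and Srebf2, while Srebf1, Scap and Insig2 were not called. Of the 31 genes, these 3 were called lower in Zn4 than in WT cells and none higher, where 1.96% of all genes were lower and 3.76% higher. These were Insig1 (-0.93 ± 0.17, adjusted p = 0.0124), Hmgcs1 (-0.47 ± 0.11, adjusted p = 0.0478) and Srebf2 (-0.46 ± 0.10, adjusted p = 0.0312, all by limma). Both Zn4 libraries lay below both WT libraries for 13 genes and above them for 4, beside 20.8% and 19.0% of all genes. The median difference was -0.11, and -0.02 over all genes. The count of 3 moved to 0 without Zn4 0 h replicate 2 or with only the 0 h libraries in the fit, and to 1 without WT 0 h replicate 1 or either WT 24 h library. Hmgcs1 was not called with limma-voom on recovered reads (-0.49) or with only the 0 h libraries in the fit (-0.47). Its difference was -0.38 without Zn4 0 h replicate 1, and that of Srebf2 was -0.35 without Zn4 0 h replicate 2. Quantile normalization gave 1 higher and 4 lower, and median-ratio scaling 1 higher and 3 lower. The shares of all genes under these scalings are not reported here. Scd2 was called higher in Zn4 cells in 7 of 23 alternatives and Elovl6 in 3.

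At 12 h, 8 of the 17 enzyme genes of the sterol pathway were lower in Zn4 cells. Over all 31 genes these 8 were called lower and none higher, against 8.28% and 4.85% of all genes. They were 4 of the 7 mevalonate genes and 4 of the 10 squalene and ring genes, and none of the fatty acid or regulator genes. Some alternatives called genes of those roles lower too. With limma-voom on recovered reads these were Scd2 (-0.95, adjusted p = 0.0467) and Insig1 (-0.59, adjusted p = 0.0458). Dhcr7 differed most (-1.26 ± 0.14, adjusted p = 0.00054), followed by Mvd (-0.69 ± 0.15, adjusted p = 0.0175), Pmvk (-0.67 ± 0.18, adjusted p = 0.0384) and Hmgcs1 (-0.58 ± 0.11, adjusted p = 0.00934). Cyp51 (-0.51 ± 0.10, adjusted p = 0.00886), Sc5d (-0.51 ± 0.12, adjusted p = 0.0207), Mvk (-0.43 ± 0.10, adjusted p = 0.0202) and Lss (-0.38 ± 0.11, adjusted p = 0.0456) completed the list. Both Zn4 libraries lay below both WT libraries for 23 genes and above them for 1, Hsd17b7, beside 33.5% and 29.7% of all genes. The 23 included fatty acid genes (Acly, Acaca, Scd2 and Elovl5) and regulation and transport genes (Srebf1, Srebf2, Scap, Insig1 and Stard4). The median difference was -0.39, and -0.01 over all genes.

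The sex-linked RNA described above moves with this comparison. In the pair of libraries with high Y-linked RNA and almost no Xist, Zn4 replicate 1 was lower than WT replicate 1 for 26 of the 31 genes. The share of all genes in that order was not computed. All 8 called genes were among the 26, but each had both Zn4 libraries below both WT libraries. Their order in this pair follows from that and is no separate check of the calls. WT replicate 2, without Y-linked RNA, was higher than WT replicate 1 for 26 of the 31 genes, including all 8, where 57% of all tested genes were higher. Dhcr7 was called in all 23 alternatives, while Lss was not called in 12 and Pmvk not in 7. The count of 8 moved to 1 without WT 12 h replicate 2, to 1 without Zn4 12 h replicate 1, to 5 without Zn4 12 h replicate 2 and to 4 with the Y-linked level as a covariate. In the test of the change between 0 h and 12 h, 2 genes (Scd2 and Dhcr7, above) differed between genotypes, both lower, against 3.58% of all genes lower and 1.54% higher. That count moved to 0 without WT 0 h replicate 1, WT 12 h replicate 2, Zn4 0 h replicate 2 or Zn4 12 h replicate 1, and to 1 without WT 0 h replicate 2, either WT 24 h library or Zn4 0 h replicate 1. Beyond these fits, the part of the sex-linked imbalance in these differences was not tested.

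At 24 h the differences went both ways, and their counts did not stand out from those of all genes. Hmgcs1 was higher in Zn4 than in WT cells (0.51 ± 0.11, adjusted p = 0.0137), while Dhcr7 (-0.99 ± 0.14, adjusted p = 0.00149), Acat1 (-0.69 ± 0.14, adjusted p = 0.00683) and Scap (-0.30 ± 0.09, adjusted p = 0.0478) were lower, against 9.40% of all genes higher and 9.96% lower. Quantile normalization gave 2 higher and 3 lower, with the shares of all genes under that scaling not reported here. Acat1, the mitochondrial thiolase of ketone and isoleucine breakdown, had 13.6 and 17.6 RPKM in Zn4 cells at 24 h, against 24.9 and 26.3 RPKM in WT cells. It was higher at 24 h than at 12 h in both genotypes, and its 24 h groups did not overlap. The Acat1 difference was not called without WT 24 h replicate 2 (adjusted p = 0.0605) or Zn4 24 h replicate 1 (adjusted p = 0.0554). Both Zn4 libraries lay above both WT libraries for 11 genes and below them for 12, beside 32.4% and 36.3% of all genes. The median difference was -0.04, and -0.02 over all genes. Scap was not called in 14 of 23 alternatives, and the count of 4 moved to 1 without WT 24 h replicate 2, to 1 without Zn4 24 h replicate 1 and to 2 without WT 24 h replicate 1.

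**Figure D4:**
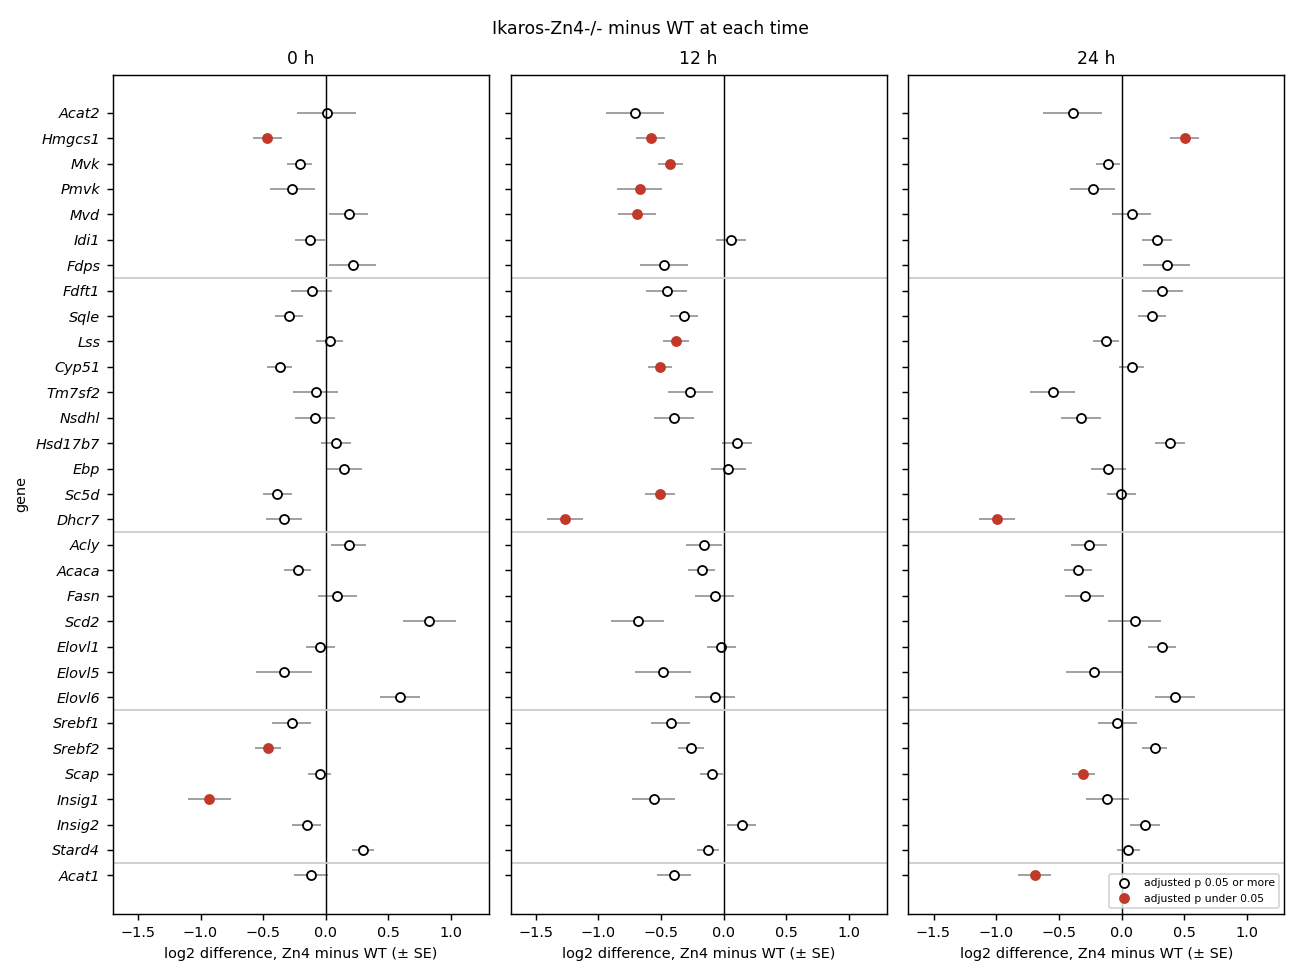
Log2 difference, Zn4 minus WT, on the log2(RPKM + 1) scale (horizontal axes) at 0 h, 12 h and 24 h for the 31 genes (vertical axis, by role); bars are SE and filled points have adjusted p under 0.05. At 12 h most points lie left of 0, with 8 called, and Dhcr7 is far left at 12 h (-1.26) and 24 h (-0.99).

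Of 6 genes of sterol efflux and its LXR receptors, 4 were lower and 2 higher at 12 h in both genotypes, led by the exporter Abcg1 (-4.52 ± 0.15 in Zn4, -3.74 ± 0.15 in WT). Beside these, 29.6% of all genes were lower and 43.5% higher in Zn4 cells, and 27.0% and 43.1% in WT cells. Mylip, a ubiquitin ligase gene that LXR induces, fell by more in Zn4 cells (-3.57 ± 0.11) than in WT cells (-2.51 ± 0.11), a difference of -1.06 ± 0.16 (adjusted p = 0.00588).

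Of 12 genes of sterol uptake, transport and storage, 5 were higher and 4 lower at 12 h in Zn4 cells, and 5 higher and 3 lower in WT cells, shares near the 43.5% and 43.1% of all genes higher and the 29.6% and 27.0% lower in Zn4 and WT cells. Gramd1b, a carrier of cholesterol from the plasma membrane, rose by 3.59 ± 0.13 in Zn4 cells and 3.06 ± 0.13 in WT cells. Soat2, which esterifies cholesterol, was higher in Zn4 than in WT cells at 0 h (1.93 ± 0.27), 12 h (1.39 ± 0.27) and 24 h (1.75 ± 0.27). Its levels were 1.92 to 6.53 RPKM in Zn4 libraries and at most 0.970 RPKM in WT libraries. Soat2 thus passed the filter of 1 RPKM in 2 libraries only through Zn4 libraries, and its test is no separate support for the difference. The 10 genes of SREBP processing and turnover gave 6 higher and 3 lower at 12 h in Zn4 cells and 7 higher and 3 lower in WT cells. Mbtps1, the Golgi protease of the pathway, was lower at 12 h in both genotypes (-1.0 ± 0.10 in Zn4, -0.91 ± 0.10 in WT), and none of the 10 was called between genotypes at 0 h or 12 h. The 13 genes of the isoprenoid branch, which uses farnesyl diphosphate for protein prenylation, dolichol and coenzyme Q, had 10 higher and 1 lower at 12 h in each genotype.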

How the data were processed

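RNA was measured in 12 single-end libraries made with a stranded mRNA kit, per the labels' protocols. TopHat2 2.0.12, HTSeq 0.6.1 and the builds mm10 and GRCm38 are named in the submitters' processing notes. The authors deposited RPKM values for 12885 gene symbols (7 stand on 2 lines with identical values and were used once). In the deposited table each gene's highest group mean is at least 1.0005 RPKM. Whole reads were recovered from the RPKM steps for 100.0% of genes within 0.02 reads.

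Values were tested as log2(RPKM + 1) by limma 3.58.1 in R 4.3.3 (empirical Bayes, mean trend). The 12726 genes reaching 1 RPKM in 2 or more libraries entered, all 31 described genes among them. The model had a mean for each of 6 groups over 12 libraries (6 residual degrees of freedom) and 11 comparisons. P-values were adjusted over all tested genes by Benjamini-Hochberg, and called under 0.05. The ± after a log2 value is the SE of the fit. Log2 changes understate those of genes near 1 RPKM. The model was tested on simulated data.

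The genes and lists were chosen with earlier results of these data known. Full statistics go to genes called between genotypes, the 4 largest and 4 smallest changes over time, and the SREBP regulators, and at most 3 called genes of each other list are named. Further genes were chosen after their values were seen. Some genes of the other lists are not reported here. The 23 alternatives were quantile and median-ratio scaling, another pseudocount (0.1), both no low-value filter and one of 5 RPKM, the compared groups alone, a robust prior, 2 forms of replicate block, a Y-linked covariate, limma-voom on recovered reads, and leaving out each of the 12 libraries. Promoter windows are from RefSeq (GRCm38.p6), gene positions from GENCODE M21 (GRCm38).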

Additional observations from a re-analysis of the deposited data

Results flagged for a closer look

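The change of 3 genes differed between the genotypes by the test of the difference itself (limma, adjusted over all genes). For Scd2 the change from 0 h to 12 h differed by -1.51 ± 0.30 (log2, Zn4 minus WT, adjusted p = 0.0223). Both Zn4 libraries of 12 h lay below both of 0 h, while in WT cells the higher library of 12 h (4.91 RPKM) lay above the lower one of 0 h (4.85 RPKM). Dhcr7 had a difference of -0.93 ± 0.20 in the same comparison (adjusted p = 0.0324), with both Zn4 libraries lower and both WT libraries higher at 12 h than at 0 h. Hmgcs1 had a difference of 1.09 ± 0.16 between 12 h and 24 h (adjusted p = 0.0311), with both Zn4 libraries higher and both WT libraries lower at 24 h than at 12 h. These comparisons use the 12 h libraries, whose Y-linked RNA is uneven. With the Y-linked level as a covariate, the differences were -0.78 for Dhcr7 (adjusted p = 0.0619) and 0.95 for Hmgcs1 (adjusted p = 0.0541), neither called, while that of Scd2 was called.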

How the results depend on the processing

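The total counts of called genes within each genotype at 12 h and at 24 h against 0 h moved by less than 1.5 times under every alternative, while counts between genotypes moved more. With only the compared groups in the fit, the genes called were 0 at 0 h (3 in the main analysis), 9 at 24 h (4), 0 for the difference between genotypes in the change at 12 h (2) and 0 for that at 24 h (1). The Y-linked covariate gave 2 for Zn4 24 h against 12 h (14), 4 between genotypes at 12 h (8), and 1 and 0 for those differences. Quantile normalization gave 5 at 0 h, limma-voom 7 at 24 h, and a pseudocount of 0.1 gave 0 for the difference at 24 h. Leaving out each library gave 22 to 27 for Zn4 12 h against 0 h, 21 to 25 for WT 12 h against 0 h, 5 to 17 for Zn4 24 h against 12 h, 5 to 12 for WT 24 h against 12 h, 23 to 24 for Zn4 24 h against 0 h, 22 to 27 for WT 24 h against 0 h, 0 to 3 between genotypes at 0 h, 1 to 10 at 12 h, 1 to 6 at 24 h, and 0 to 3 and 0 to 1 for the differences in change at 12 h and 24 h. Changes that turned sign were Stard4 in WT cells at 12 h against 0 h (-0.028 with median-ratio scaling) and Srebf2 in WT cells at 24 h against 0 h (-0.067 with quantile normalization and -0.051 with median-ratio scaling); both scalings bring the median of all genes at these times to between -0.02 and 0.044. Promoter shares with 250 bases before the start only were 61.8% for CCAAT and 70.6% for GGGCGG.

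The labels do not say that replicate numbers pair the samples. Deviations of same-numbered libraries correlated at -0.115 to 0.61 over 15 pairs of groups, with 0.61 between Zn4 and WT cells at 0 h, 0.192 at 12 h and 0.043 at 24 h, so same-numbered libraries deviated together at 0 h. A replicate block shared by all groups moved none of these counts by over 1.5 times. A replicate block at each time point gave 23 for Zn4 24 h against 12 h, 10 between genotypes at 0 h (3 higher, which were Scd2, Elovl6 and Stard4, and 7 lower), 17 at 12 h and 11 at 24 h, and 4 and 2 for the differences in change at 12 h and 24 h. The shares of all genes called under that block are not reported here, so these counts cannot be read as a result about the members.

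Over all genes, the count for the difference at 24 h was 100 in the main analysis and ranged from 0 (pseudocount 0.1) to 366 (without Zn4 24 h replicate 2). With 2 libraries a group, leaving out 1 leaves a lone library that is assumed to vary like the other groups. Depth limits Idi1 most, which had the fewest reads of the 31 genes (25 to 203 a library).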

Other observations

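Some genes of fatty acid breakdown and of the handling of fatty acids also differed between the genotypes. Of 15 fatty acid oxidation genes, 5 were lower and none higher in Zn4 than in WT cells at 12 h (limma, against 8.28% lower and 4.85% higher over all genes). The largest of these differences were those of Cpt1a, the carnitine transferase that admits fatty acids to mitochondria (-1.40 ± 0.23, adjusted p = 0.00396), and of the dehydrogenases Hadh (-1.16 ± 0.19, adjusted p = 0.0042) and Acads (-1.0 ± 0.13, adjusted p = 0.00131). At 24 h Hadh (-1.14 ± 0.19) and Acads (-0.64 ± 0.13) were the 2 of 15 called lower, and none was called higher. That count is near the share of all genes at 24 h, 9.96% lower and 9.40% higher. Between 24 h and 12 h Cpt1a rose by 1.57 ± 0.23 in Zn4 cells (adjusted p = 0.000872) and changed by 0.69 ± 0.23 in WT cells (adjusted p = 0.0572), a difference that was not called (0.87 ± 0.33, adjusted p = 0.316). The 12 h libraries carry the uneven Y-linked RNA given above, and its part in these differences was not tested.

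Among 18 other genes of fatty acid and lipid synthesis, the acyl-CoA synthetase gene Acsl6 was higher in Zn4 than in WT cells at 12 h (2.07 ± 0.12) and 24 h (1.64 ± 0.12). Acsl6 had 2.43 to 4.09 RPKM in the stimulated Zn4 libraries and at most 0.139 RPKM in every other library. It passed the filter of 1 RPKM in 2 libraries only through those Zn4 libraries, so its test is no separate support for the difference. Fads2, the delta-6 desaturase of polyunsaturated chains, was higher in Zn4 cells at 24 h (1.40 ± 0.16, adjusted p = 0.000409), and its change between 12 h and 24 h was 2.42 ± 0.16 in Zn4 cells and 1.03 ± 0.16 in WT cells, a difference of 1.40 ± 0.22 (adjusted p = 0.0371). Fads1, the delta-5 desaturase, was lower in Zn4 cells at 0 h (-0.49 ± 0.12, adjusted p = 0.0392), 12 h (-0.82 ± 0.12, adjusted p = 0.00177) and 24 h (-0.42 ± 0.12, adjusted p = 0.0308). Dgat1 and Dgat2 encode unrelated enzymes that make triglyceride. At 12 h against 0 h Dgat1 fell in both genotypes (-2.71 ± 0.14 in Zn4, -2.81 ± 0.14 in WT) and Dgat2 rose (2.46 ± 0.17 in Zn4, 2.56 ± 0.17 in WT).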
